A study of Rattus norvegicus with 20 samples.

Results

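Gene expression was compared between day 2 and day 1 of water loading in cortical collecting ducts of rats, the part of the kidney tubule where vasopressin controls how much water is taken back. The comparison was chosen by the sample titles: 4 water-loaded libraries of day 2 against 3 of day 1, 7 of the 20 libraries of the series, each from a separate rat per the labels. All rats were male Sprague-Dawley rats aged 5 weeks with a minipump under the skin that released DDAVP, an agonist of the vasopressin V2 receptor, at 5 ng per hour. Water-loaded rats took in 50 mL of water per day with a gelled diet, and control rats, which carried the same pump, 25 mL. The 3 control rats of day 1 and 4 of day 2 give the same step in time without the load. DDAVP was present in every group, so no group shows the duct without it, and each rat was killed at 1 time point, so no rat gives both days. The labels record no library batch, and day and batch of preparation cannot be told apart.

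When water intake stays high while vasopressin action is held constant, the kidney regains the ability to excrete water, a process called vasopressin escape. In principal cells of the collecting duct, vasopressin acts through its V2 receptor, cyclic AMP and protein kinase A to bring vesicles with the water channel Aqp2 to the apical membrane and to keep its gene active, while Aqp3 and Aqp4 pass water on through the basolateral membrane. Escape is known for a loss of Aqp2 from the duct.

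Between day 1 and day 2 of water loading, 27 of 14472 genes tested were called at an adjusted p under 0.05 by edgeR, 0.187% of them. Of these 20 fell (0.138%) and 7 rose (0.0484%). The genes that fell included Spint2, an inhibitor of epithelial membrane proteases, the clathrin light chain Clta, the small GTPases Arf5 and Diras3 and the transcription factor Cebpd. Those that rose included the actin gene Actb, the mitochondrial import genes Timm44 and Hspa9, the tetraspanin gene Cd9 and Lrrc41. At an unadjusted p under 0.05 there were 1990 genes (13.8%), 983 higher and 1007 lower. The common biological coefficient of variation, the spread of a gene between rats of 1 group as a share of its level, was 1.06, so that single genes had to change much to be called. Other tools and scales called more: DESeq2 830 genes (6.18% of those it gave an adjusted p), limma-voom 129 (0.891%), limma on log2(FPKM + 1) 103 (0.712%) and on log2(FPKM + 0.1) 124 (0.857%), and edgeR on the 3489 genes left by a filter of 50 CPM 71 (2.03%). A call named without a tool is by edgeR over all genes tested.

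The 7 libraries held 43 to 64 M reads on genes, and 12788 to 13669 genes were detected per library at day 1 against 13651 to 15266 at day 2. Libraries correlated across genes at 0.794 to 0.852 within day 1 and at 0.861 to 0.92 within day 2. All 15 principal cell markers were tested, and their summed level was 17570 to 32370 CPM (TMM-scaled CPM, a count as a share of its library) at day 1 and 17090 to 29690 CPM at day 2. Much of that sum was Aqp2, with 9959 to 18330 CPM at day 1 and 9242 to 18070 CPM at day 2. The mean log2 CPM of the 15 markers was 8.33 ± 0.18 (SD, n = 3) at day 1 and 8.07 ± 0.14 (SD, n = 4) at day 2. The library of day 1 water-loaded rat 2 stood apart, with the lowest number of detected genes and a TMM factor of 0.686. The summed proximal tubule markers in it were 9602 CPM, against 306.4 and 121.9 CPM in rats 1 and 3 of day 1 and 112 to 219.7 CPM at day 2. Of the 16 proximal tubule markers, 15 were lower at day 2, with a median log2 difference of -6.01, and without that library 10 were lower with a median of -0.23. Summed loop of Henle and distal tubule markers were also highest there, at 13140 CPM, against 1701 to 2545 CPM in the other day 1 rats and 798.2 to 5708 CPM at day 2. All 20 genes that fell had their highest day 1 level in that library, as had 34.2% of all genes tested and 83.1% of those lower at an unadjusted p under 0.05. Without it 3 genes were called, Spint2 (log2 difference -2.46, adjusted p = 0.000931), Scand1 (-5.10, adjusted p = 0.024) and RGD1307752 (-3.02, adjusted p = 0.0308). The other 24 kept their direction without it and were not called (adjusted p 0.0734 to 0.464). Their log2 differences were then 67.5% to 130.1% of the value with all libraries (median 83.6%), as in Diras3 at -3.38 against -3.42 and Tmem160 at -3.86 against -4.30. With the mean level of the proximal tubule markers as a covariate in the all-library fit, 3 genes were called too. In bulk samples fewer cells of a type and less RNA per cell cannot be told apart.

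Spint2 (ENSRNOG00000020636) encodes a Kunitz-type inhibitor of membrane serine proteases of epithelia, among them activators of the sodium channel ENaC. It stood at 2640, 6019 and 2902 CPM in the day 1 rats and at 429.6, 571.9, 524.6 and 493.9 CPM in the day 2 rats. Every day 2 library lay below every day 1 library, and the 4 day 2 values lay close together. Its mean fell 7.63-fold, from 3854 ± 1880 (SD, n = 3) to 505 ± 59.61 CPM (SD, n = 4), with a log2 difference of -2.93 (SE 0.31, adjusted p = 0.000167 by edgeR). Control rats stood at 4013 ± 1492 CPM at day 1 and 946.4 ± 69.83 CPM at day 2. Water-loaded rats of day 4 stood at 559.4, 547.2 and 761.9 CPM.

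Itm2b, a ubiquitous type II membrane protein, was the most abundant gene that fell. It stood at 10790, 26130 and 11900 CPM at day 1 and at 2950, 2966, 2461 and 2534 CPM at day 2, with no overlap (log2 difference -2.58, SE 0.38, adjusted p = 0.00585). Scand1, a small protein with a SCAN domain, stood at 275.3, 711.8 and 435.6 CPM at day 1. At day 2 it stood at 8.878, 13.51, 6.341 and 12.6 CPM, a 45.9-fold fall (adjusted p = 0.00287). Cebpd, a leucine zipper transcription factor of the C/EBP family, had the largest log2 difference among the genes that fell, -5.78 (SE 0.86, adjusted p = 0.00585). Its day 1 values were 81.64, 646.6 and 130.4 CPM and its day 2 values 6.586, 1.457, 10.15 and 2.551 CPM. The 3 day 1 values of Cebpd spread widely, rat 2 was the highest, and the groups did not overlap.

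Clta, a clathrin light chain of coated vesicles, stood at 570.3, 1010 and 568.7 CPM at day 1 and at 72.84, 135.5, 53.13 and 97.74 CPM at day 2 (log2 difference -3.00, adjusted p = 0.0154). Arf5, a small GTPase of Golgi traffic, went from 320.5 ± 226.6 to 50.68 ± 15.1 CPM (adjusted p = 0.0283). Yipf4, a Golgi membrane protein, went from 223.6 ± 164.3 to 29.4 ± 8.649 CPM (adjusted p = 0.035). Mapre3, which binds growing ends of microtubules, went from 62.85 ± 43.04 to 7.198 ± 3.865 CPM (adjusted p = 0.0485). In each of these 4 genes every day 2 library lay below every day 1 library, as in every gene called lower and in 5.9% of all genes tested. The calls and the lack of overlap rest on the same libraries, so the lack of overlap is no further support. Diras3, a small GTPase of the Ras family, was the most even at day 1, with 130, 141.8 and 135.2 CPM, and stood at 8.77, 18.72, 4.67 and 18.75 CPM at day 2 (log2 difference -3.42, SE 0.59, adjusted p = 0.0166). Tmem178a, a membrane protein, showed the smallest fall, 3-fold, from 437.7 ± 46.45 to 145.8 ± 30.21 CPM (adjusted p = 0.0283).

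C1qbp, a protein of the mitochondrial matrix, fell 8.27-fold, from 623.3 ± 388.9 to 75.34 ± 28.26 CPM (adjusted p = 0.0101). Eif3f, a subunit of translation initiation factor eIF3, fell 6.02-fold, from 752.4 ± 430.1 to 124.9 ± 30.83 CPM (adjusted p = 0.0401). Hoxb6, a homeobox factor, fell 5.18-fold, from 132.6 ± 84.45 to 25.6 ± 4.234 CPM (adjusted p = 0.0452). Ypel3 fell 5.67-fold (adjusted p = 0.0165), Tmem160 19.7-fold (adjusted p = 0.0165), Ssbp4 8.68-fold (adjusted p = 0.0401) and Abhd8 3.56-fold (adjusted p = 0.0485). RGD1307752, RGD1309779 and RGD1561582, which have only locus names, fell 10.9-fold, 12.3-fold and 4-fold. The length implied by the ratio of deposited counts to FPKM had a median of 1.12 kb over the 20 genes that fell, against 2.04 kb over the genes tested for which it could be computed. The part of transcript length in these calls was not tested.

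Among the genes that rose, Actb, cytoplasmic beta actin, stood at 198.7, 37.72 and 78.61 CPM at day 1 and at 1812, 1512, 492.3 and 1630 CPM at day 2. The day 2 rats 1, 2 and 4 lay far above rat 3, and all 4 lay above day 1. The log2 difference was 3.70 (SE 0.70, adjusted p = 0.0381), and the water-loaded rats of day 4 stood at 186.3, 303.9 and 356.1 CPM. Of the 24 tested members of the actin cytoskeleton list, 9 were higher and 15 lower, with a median log2 difference of -0.12. Actb has many retrocopies, so its counts are uncertain.

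Lrrc41, a substrate adaptor of a cullin ubiquitin ligase, stood at 22.81, 18.77 and 26.5 CPM at day 1 and at 117.1, 102.5, 114.4 and 113.1 CPM at day 2. It rose 4.93-fold (adjusted p = 0.0166), and its day 2 values lay close together. Cd9, a tetraspanin of the plasma membrane, went from 269.6, 270.3 and 295.1 CPM to 741.6, 543.1, 1081 and 801.8 CPM (2.84-fold, adjusted p = 0.0485).

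Timm44 and Hspa9, partners in the motor that pulls proteins into the mitochondrial matrix, both rose. Timm44 was near the floor at day 1, with 0.05515, 0.6883 and 0.04359 CPM, where 3 counts are worth 0.0552 to 0.0794 CPM, and stood at 40.25, 59, 63.1 and 54.7 CPM at day 2 (log2 difference 7.71, adjusted p = 0.0401). The size of that difference is poorly fixed, because 2 of the day 1 values rest on 2 or 3 counts. Hspa9, the mitochondrial Hsp70, went from 51.16, 28.11 and 51.74 CPM to 129.8, 167.4, 133.4 and 178.9 CPM (3.49-fold, adjusted p = 0.0485).

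The 3 next genes in the upward direction did not pass. Asf1b, a histone chaperone of replicating cells, had 0 counts in all 3 day 1 water-loaded libraries and stood at 17.46, 35.27, 16.11 and 40.91 CPM at day 2. Against a floor of 3 counts per library (0.0794 CPM, the highest of the 3) that is at least 346-fold higher, with an adjusted p of 0.0715. Such a floor covers counting error only. Control rats stood at 0.2487, 12.27 and 10.24 CPM at day 1 and had a mean of 1.182 CPM at day 2. Their step in Asf1b went the other way (log2 difference -2.68, unadjusted p = 0.0994 by edgeR). The interaction had an unadjusted p of 8.81e-05 and an adjusted p of 0.24. Adgre5, an adhesion receptor of leukocytes, also had 0 counts in the day 1 water-loaded libraries. It stood at 5.555, 3.452, 14.56 and 17.8 CPM in those of day 2, at least 130-fold higher against the same floor (adjusted p = 0.0689). Frg1, a nuclear RNA-binding protein, stood at 0, 0.2382 and 0.1525 CPM at day 1 and at 10.76 to 17.1 CPM at day 2 (adjusted p = 0.082). Frg1 rested on few counts at day 1, like Timm44.

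**Figure D1:**
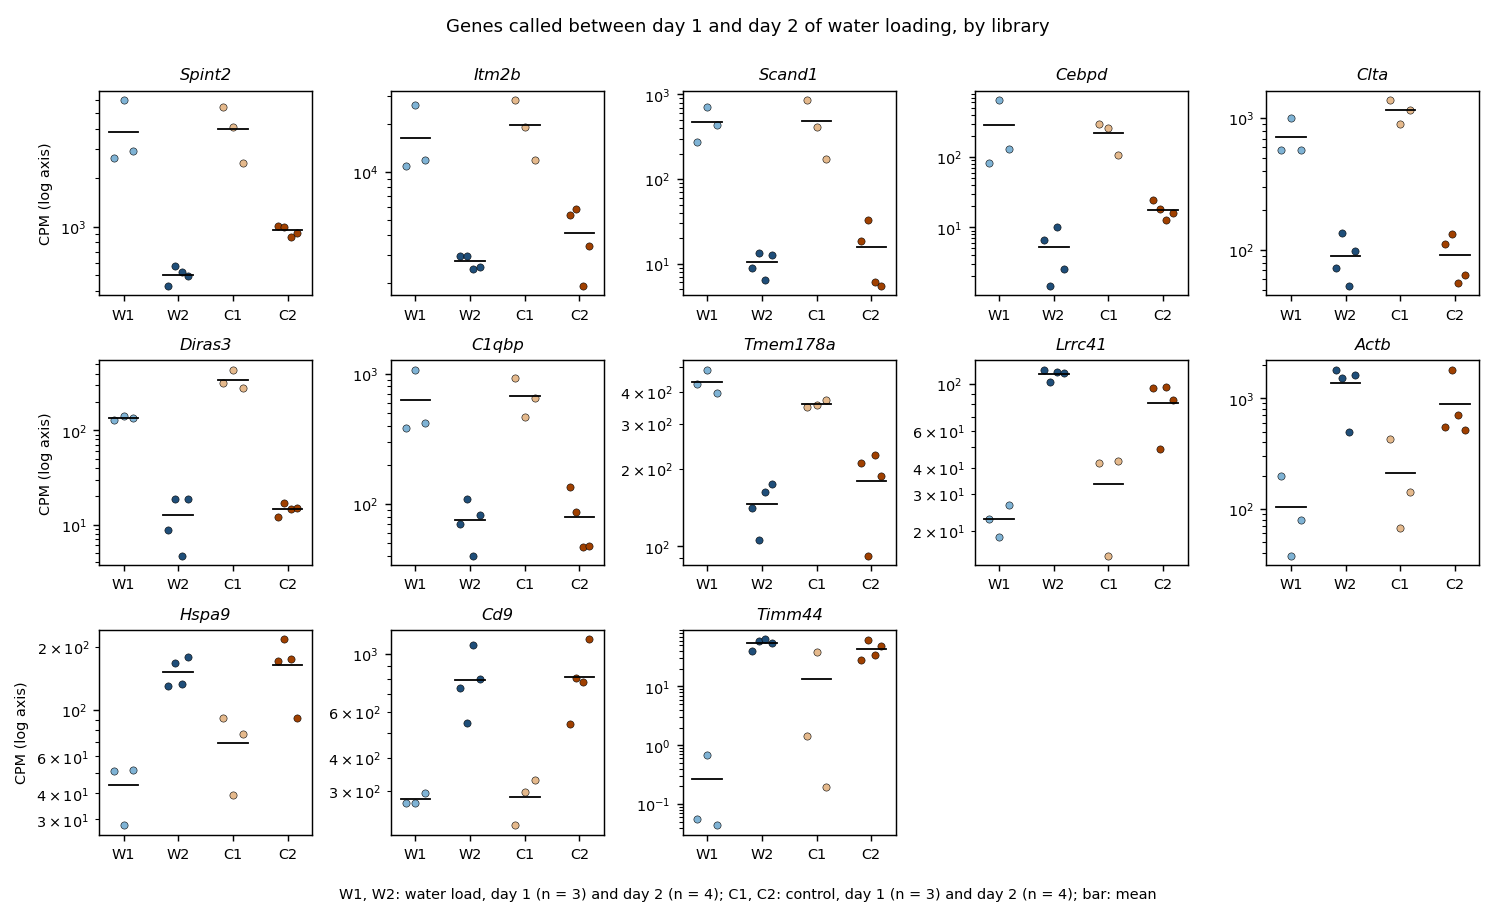
Level of 13 called genes in CPM (log axis) in each library of water-loaded and control rats at day 1 and day 2; points are rats and bars are group means. In Spint2 the 4 day 2 water-loaded rats sit between 429.6 and 571.9 CPM, all below the 3 day 1 rats, and control rats are drawn beside them for each gene.

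The same step in control rats was the background against which these calls were read. In control rats 194 genes were called (1.34%), 79 higher (0.546%) and 115 lower (0.795%). The water-loaded and control steps share no library, but both came from the same fit with the same estimate of spread per gene. The p-values of a gene in both steps are therefore not independent. With only the groups compared in a fit, 6 genes were called with water load and 4 in control rats. All 27 genes called with water load had the same sign in control rats, as had 59.8% of all genes tested, and 25 of them had an unadjusted p under 0.05 there, against 20% of all genes tested. Of the 27 genes, 19 were also called in control rats, 70.4% of the water-loaded list and 9.79% of the control list. Day 1 control rat 1 stood apart, with a TMM factor of 0.645 and 12665 detected genes. Its summed smooth muscle markers were 4317 CPM, against 10.35 and 4.815 CPM in day 1 control rats 2 and 3. Without it 13 genes were called in control rats, 12 of them among the 194. This library and day 1 water-loaded rat 2 are the 2 day 1 libraries set aside in an alternative below. Scand1 had a log2 difference of -4.95 in control rats (adjusted p = 0.00498) and Diras3 one of -4.56 (adjusted p = 0.00334). Cd9 had 1.53 (adjusted p = 0.0256), close to its 1.51 with water load.

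Whether the step differed between water-loaded and control rats was tested as an interaction. The edgeR fit called 0 genes (0%), with a smallest adjusted p of 0.24, and 1579 genes (10.9%) had an unadjusted p under 0.05. DESeq2 called 518 genes (3.72%) and limma-voom 5 (0.0345%). Of the 27 genes called with water load, 2 had an unadjusted interaction p under 0.05. Timm44 had 0.00154: its control rats stood at 1.464, 38.6 and 0.1972 CPM at day 1, so that 1 control rat already lay at the day 2 level. Hoxb6 had 0.0309, with a log2 difference of -2.37 with water load and -0.84 in control rats. Without day 1 control rat 3 the interaction count was 8, and without day 2 control rat 3 it was 1.

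**Figure D2:**
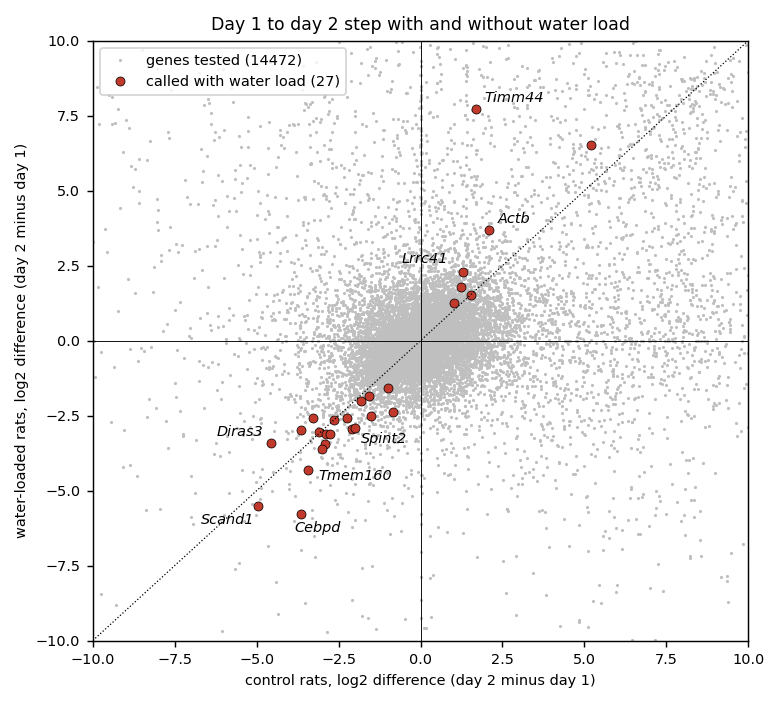
Fitted log2 difference (day 2 minus day 1) of each gene tested in control rats (horizontal axis) and in water-loaded rats (vertical axis), with the 27 genes called with water load in red and a dotted line of equal differences; 259 genes lie outside the axes, which end at 10. All 27 red points have the same sign on both axes, and Timm44 lies farthest above the line.

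Most genes of the 2 cell cycle lists had higher values at day 2 of water loading, and edgeR called none of them. The mitosis and spindle list holds kinases, kinesins and kinetochore proteins that cells express from G2 to M phase. Of its 32 tested members 31 were higher at day 2 (53.2% of all genes tested were), with a median log2 difference of 2.37, against a median of 0.09 over all genes. In control rats 16 of 32 were higher (54% of all genes tested were), with a median of 0.28, against 0.13 over all genes. In 15 of the 32 members every day 2 water-loaded library lay above every day 1 library, where 8.14% of all genes tested did. An unadjusted p under 0.05 was reached by 6 members, all higher (6.79% of all genes tested were higher at that p), and 0 were called by edgeR. DESeq2 called 5 members (6.18% of its genes in either direction), all higher. Limma-voom (0.891%) and the 2 FPKM scales (0.712% and 0.857%) called 2 each, all higher. Without day 1 water-loaded rat 2 all 32 members were higher, with a median of 2.07. The interaction had an unadjusted p under 0.05 in 5 of the 32 members (10.9% of all genes tested). Many members were low at day 1: 6 of 32 had a mean of at least 10 CPM at day 1 and 27 at day 2.

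Mean log2 CPM of the mitosis list was 0.77, -0.84 and 1.37 in the day 1 water-loaded rats and 4.71, 3.84, 3.83 and 3.13 in the day 2 rats, with no overlap. Control rats stood at -0.99 to 2.22 at day 1 and at -0.26 to 1.77 at day 2, and the day 4 water-loaded rats at 3.33, 2.76 and 1.43. All 4 day 2 water-loaded values lay above every day 1 and day 2 control value, and day 4 rat 1 lay above day 2 rat 4. Summed endothelial markers, another cell type, were 71.45 to 508.1 CPM at day 1 and 165 to 802.8 CPM at day 2, and all 8 of its tested members were higher, with a median log2 difference of 1.42. Without 1 water-loaded library that median ranged from 0.93 (without day 1 rat 2, 7 of 8 higher) to 2.79 (without day 1 rat 1). It was 0.38 with day 2 libraries 1 and 2 only (5 of 8 higher), and -0.01 with detected genes as a covariate (4 of 8 higher). Immune cell markers summed to 147.7 to 368.9 and 142.3 to 730.2 CPM, and fibroblast and pericyte markers to 58.25 to 95.22 and 29.02 to 123 CPM. The number of detected genes was 12788 to 13669 in the day 1 and 13651 to 15266 in the day 2 water-loaded rats. Within day 2 it did not follow the mitosis list. Water-loaded rats 1 to 4 had 14373, 13651, 15266 and 15261 detected genes and list values of 4.71, 3.84, 3.83 and 3.13. With detected genes as a covariate 32 of 32 mitosis members were higher, with a median log2 difference of 2.52. Beyond that fit, the part of any of these in the mitosis list was not tested.

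Cdk1, the kinase that drives entry into mitosis, stood at 13.84, 7.094 and 9.785 CPM at day 1 and at 53.65, 53.38, 42.52 and 44.03 CPM at day 2. The groups did not overlap, and the log2 difference of 2.24 (SE 0.78) had an adjusted p of 0.246. In control rats its means were 48.25 CPM at day 1 and 22.44 CPM at day 2, and the interaction had an unadjusted p of 0.00498. Plk1, a kinase of spindle assembly, stood at 0, 0.07941 and 1.634 CPM at day 1 and at 12.12, 25.05, 14.64 and 16.64 CPM at day 2 (adjusted p = 0.253). Aurkb, the kinase of the chromosomal passenger complex, stood at 1.397, 0.1059 and 2.419 CPM and then at 30.33, 16.05, 30.73 and 30.51 CPM (adjusted p = 0.3). Cdc20, the activator of the anaphase-promoting complex, stood at 3.952, 0.2118 and 7.932 CPM and then at 48.3, 14.62, 36.45 and 27.83 CPM (adjusted p = 0.314). Cdca8, another subunit of the passenger complex, stood at 0, 0.2382 and 2.288 CPM and then at 26.82, 2.949, 22.37 and 26.62 CPM (adjusted p = 0.342), with rat 2 the lowest at day 2 as in Aurkb and Cdc20. Smc2, a condensin subunit named after its value was seen, was the only lower member (log2 difference -2.07), with 170.6 CPM in day 1 rat 2 against 2.555 and 25.52 CPM in the others.

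Promoters of genes expressed late in the cell cycle are known for the cell cycle homology region (CHR), read by the DREAM and MuvB complexes, and for CCAAT boxes, read by NF-Y. The 250 bases before the start of the 4 mitosis members with the smallest p among those in the RefSeq promoter table (assembly GRCr8) and a mean of at least 10 CPM are shown because all 4 had day 2 values above day 1. Capitals mark TTTGAA (CHR) and CCAAT on either strand, on which they read TTCAAA and ATTGG; where both overlap, the capitals run together. The last base is the base before the gene's start. The positions are chr20:19265043-19265292 (+) for Cdk1, chr1:186147408-186147657 (+) for Plk1, chr5:137255800-137256049 (-) for Cdc20 and chr5:142483200-142483449 (-) for Cdca8.
Cdk1: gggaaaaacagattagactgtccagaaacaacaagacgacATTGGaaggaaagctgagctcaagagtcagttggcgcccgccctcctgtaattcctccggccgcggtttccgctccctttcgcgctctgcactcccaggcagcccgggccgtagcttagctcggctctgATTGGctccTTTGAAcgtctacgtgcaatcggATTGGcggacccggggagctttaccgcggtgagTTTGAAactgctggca
Plk1: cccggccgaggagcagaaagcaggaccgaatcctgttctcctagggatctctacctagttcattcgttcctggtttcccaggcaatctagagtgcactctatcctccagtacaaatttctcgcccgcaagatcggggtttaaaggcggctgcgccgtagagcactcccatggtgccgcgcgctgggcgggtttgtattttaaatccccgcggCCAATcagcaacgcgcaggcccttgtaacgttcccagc
Cdc20: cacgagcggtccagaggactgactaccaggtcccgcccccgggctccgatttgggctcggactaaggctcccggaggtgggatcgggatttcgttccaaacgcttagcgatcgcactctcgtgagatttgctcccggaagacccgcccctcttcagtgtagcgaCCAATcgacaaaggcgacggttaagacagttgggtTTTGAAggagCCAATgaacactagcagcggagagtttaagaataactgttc
Cdca8: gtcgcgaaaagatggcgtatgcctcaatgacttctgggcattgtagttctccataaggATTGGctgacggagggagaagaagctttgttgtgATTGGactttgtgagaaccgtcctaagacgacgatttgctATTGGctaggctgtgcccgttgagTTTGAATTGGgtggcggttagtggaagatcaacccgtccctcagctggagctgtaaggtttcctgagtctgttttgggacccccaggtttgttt

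Cdk1 held CHR letters at 72 to 67 and 16 to 11 bases before the start and 3 CCAAT boxes. Cdc20 held CHR letters at 51 to 46 bases before the start between CCAAT boxes at 86 to 82 and at 41 to 37. Cdca8 held CHR letters at 94 to 89 bases before the start, overlapping the nearest of its 4 CCAAT boxes. Plk1 held 1 CCAAT box, at 38 to 34 bases before the start, and no TTTGAA in this window. Of the 32 tested mitosis members, 26 were matched in the RefSeq table, and 13 of these promoters (50%) held the CHR letters, against 16% of all 27457 promoters of the same length. CCAAT was in 73.1% against 34.3%, and both were in 46.2% against 5.76%. Of 26 matched G1/S promoters, 3.85% held the CHR letters and 53.8% CCAAT. These shares describe letters in the reference sequence, and a match is not a bound site.

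The G1/S and DNA replication list, genes of the licensing of origins and of nucleotide supply, had a smaller median. Of its 33 tested members 27 were higher, with a median log2 difference of 0.79 (control rats 14 of 33, median -0.37). By edgeR 0 were called and 6 had an unadjusted p under 0.05, all higher (6.79% of all genes tested). DESeq2 called 4 higher (6.18% of its genes in either direction). Limma-voom (0.891%), the 2 FPKM scales (0.712% and 0.857%) and the 50 CPM filter (2.03%) called 1 each. In 11 members the day 2 water-loaded libraries all lay above day 1 (8.14% of all genes tested). Its mean log2 CPM was 2.89, 1.27 and 3.85 at day 1 and 4.67, 4.41, 4.14 and 4.52 at day 2. Without day 1 rat 2, 25 of 33 were higher, with a median of 0.70, and without day 1 rat 3, 25 of 33 with a median of 1.49. Pcna, the sliding clamp of DNA polymerase, stood at 153.6, 198 and 202.7 CPM at day 1 and at 285.8, 424.5, 517.8 and 1064 CPM at day 2 (log2 difference 1.63, SE 0.46, adjusted p = 0.15). Tyms, thymidylate synthase, stood at 31.64, 28.3 and 48.44 CPM and then at 80.29, 87.31, 94.17 and 165.6 CPM (adjusted p = 0.262). In both genes rat 4 of day 2 was the highest.

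**Figure D3:**
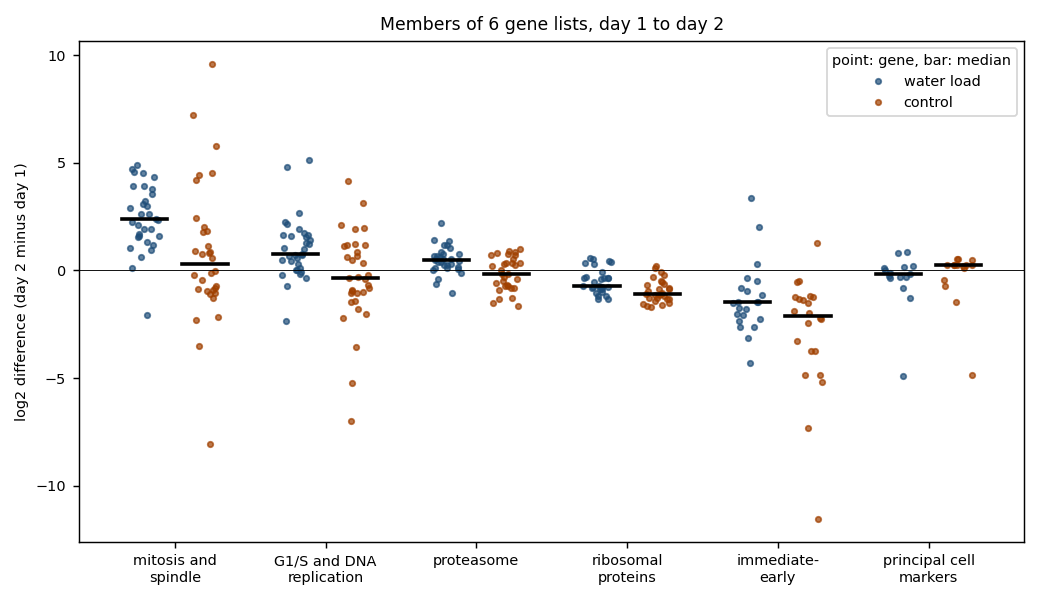
Fitted log2 difference (day 2 minus day 1) of each tested member of 6 gene lists, with water load in blue and in control rats in brown; points are genes and bars are medians. The mitosis list has a median of 2.37 with water load and 0.28 in control rats, and the medians of the immediate-early and ribosomal protein lists lie below 0 in both.

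Immediate-early genes, transcribed within minutes of a stimulus, were lower at day 2. Of the 22 tested members 19 were lower with water load, with a median log2 difference of -1.49, and 21 were lower in control rats, with a median of -2.10. With water load 9 members had an unadjusted p under 0.05 and were lower (6.96% of all genes tested), and 0 were called by edgeR. DESeq2 called 6 lower (6.18% of its genes in either direction) and the 50 CPM filter 2 (2.03%). In control rats 2 were called lower (0.795% of all genes tested). Without day 1 rat 2, 19 of 22 were lower, with a median of -0.92. The list's mean log2 CPM was 3.50, 5.50 and 5.75 in the day 1 water-loaded rats and 3.97, 3.10, 4.29 and 3.44 at day 2, so that day 1 rat 1 lay among the day 2 rats. Day 1 control rats ranged from 4.57 to 7.60. Fosb, a partner of Jun in AP-1, stood at 64.03, 465.7 and 253.1 CPM at day 1 and at 9.109, 23.35, 13.32 and 7.9 CPM at day 2 (log2 difference -4.28, SE 1.01, adjusted p = 0.0977). Zfp36, which speeds decay of mRNAs with AU-rich elements, stood at 144, 802.2 and 423.7 CPM and then at 40.7, 84.92, 107 and 65 CPM (adjusted p = 0.12). Atf3, a stress-induced transcription factor, stood at 341, 2112 and 1842 CPM and then at 261.8, 184.2, 120.6 and 74.07 CPM (adjusted p = 0.148). In each of the 3 genes day 1 rat 1 was the lowest of its group and still above day 2.

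Cytoplasmic ribosomal protein genes were also lower in both treatments, with 23 of 29 members lower under water load (median log2 difference -0.70) and 27 of 29 lower in control rats (median -1.09). With water load edgeR called 0, with 9 lower at an unadjusted p under 0.05 (6.96% of all genes tested). DESeq2 (6.18% of its genes in either direction) and the log2(FPKM + 0.1) scale (0.857%) called 2 lower each. Limma-voom (0.891%) and the log2(FPKM + 1) scale (0.712%) called 1 each. In 9 members all day 2 water-loaded libraries lay below day 1 (5.9% of all genes tested), and in control rats edgeR called 6 lower (0.795% of all genes tested). Rps23 stood at 796.2, 1419 and 759.6 CPM at day 1 and at 431.2, 423.4, 501.8 and 612.9 CPM at day 2 (adjusted p = 0.158). Rpl32 had a log2 difference of -1.34 (adjusted p = 0.187). In both genes the day 2 values lay below the day 1 values. The family has many near-identical retrocopies, so its values are uncertain. Without day 1 rat 2 the median of the list was -0.42.

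Proteasome subunits were higher with water load in 27 of 31 members (median log2 difference 0.49) and in 15 of 31 in control rats (median -0.16). By edgeR 0 were called with water load and 5 had an unadjusted p under 0.05, all higher (6.79% of all genes tested). DESeq2 called 3 higher (6.18% of its genes in either direction). Psmd6, a lid subunit, stood at 85.19, 7.147 and 73.72 CPM at day 1 and at 183, 166.5, 232 and 438.6 CPM at day 2 (adjusted p = 0.195). Psmd8 had a log2 difference of 1.05 (adjusted p = 0.22) and Psmd14, the deubiquitinase of the lid, one of 1.36 (adjusted p = 0.243). The list's mean log2 CPM was 6.51, 5.83 and 6.60 at day 1 and 6.87 to 7.06 at day 2, and day 1 rat 2 was again the lowest. Without it 26 of 31 were higher, with a median of 0.41.

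**Figure D4:**
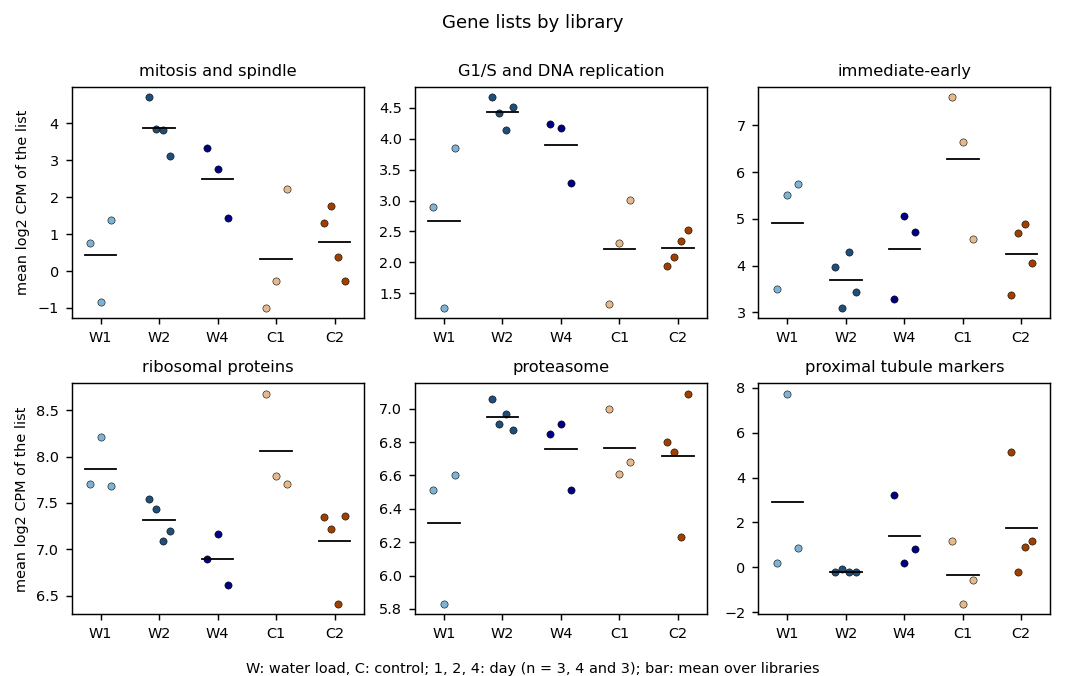
Mean log2 CPM of 6 gene lists in each water-loaded library of days 1, 2 and 4 (W1, W2, W4) and each control library of days 1 and 2 (C1, C2); points are rats and bars are group means. The 4 day 2 water-loaded rats lie between 3.13 and 4.71 for the mitosis list, above all day 1 rats, and 1 day 1 water-loaded rat stands at 7.74 for the proximal tubule markers.

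The water channels and their receptor did not pass the test between day 1 and day 2 of water loading. Aqp2 stood at 9959, 18330 and 12530 CPM at day 1 and at 9242, 13910, 9255 and 18070 CPM at day 2, with both groups over the same range. Its log2 difference was -0.11 (SE 0.31, adjusted p = 0.935), and an exact two-sided permutation test of mean log2 CPM gave p = 0.8, where 0.0571 is the smallest p that 35 arrangements allow. Aqp3 stood at 739, 1396 and 882.4 CPM at day 1 and at 460.3, 672.8, 836.8 and 1382 CPM at day 2 (log2 difference -0.26, SE 0.35, adjusted p = 0.823, exact two-sided permutation p = 0.4). Aqp4 stood at 106.6, 178.7 and 79.96 CPM and then at 141.4, 193.9, 89.84 and 124.6 CPM (adjusted p = 0.915). Avpr2, the V2 receptor itself, stood at 570.7, 768.3 and 591.7 CPM and then at 524.7, 438, 384.1 and 716.4 CPM (log2 difference -0.32, SE 0.31, adjusted p = 0.725). The signs of Aqp2, Aqp3 and Aqp4 turned under some alternatives, so no direction is given for them. Control means of Aqp2 were 22430 CPM at day 1 and 24370 CPM at day 2, against 13610 and 12620 CPM with water load. Those of Aqp3 were 2049 and 2873 CPM, against 1006 and 837.9 CPM. The difference between water-loaded and control rats within a day was not tested here.

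The subunits of ENaC, the apical sodium channel, overlapped between days too. Scnn1a had a log2 difference of -0.08 (SE 0.26), Scnn1b one of 0.12 (SE 0.27) and Scnn1g one of -0.31 (SE 0.23), with adjusted p of 0.947, 0.91 and 0.608. The signs of Scnn1a and Scnn1b turned under some alternatives. Of the 26 tested genes of vasopressin signalling and water transport, 12 were higher and 14 lower, with a median log2 difference of -0.10, while the mean of their log2 levels went the other way, from 4.38 ± 0.38 (SD, n = 3) to 4.87 ± 0.19 (SD, n = 4). Of the 24 genes of sodium and potassium transport 11 were higher and 13 lower (median -0.12). By edgeR 0 of either list were called, and 7 of the water transport list (2 higher, 5 lower) and 2 of the sodium and potassium list (both lower) had an unadjusted p under 0.05. That p was reached by 13.8% of all genes tested, 6.79% higher and 6.96% lower. DESeq2 called 3 of the water transport list (1 higher, 2 lower) and 1 of the sodium and potassium list (lower), where it called 6.18% of its genes. On both FPKM scales, with the 50 CPM filter and with the 2 day 1 libraries set aside that stood apart, 1 water transport gene was called, lower. The FPKM scales called 0.712% and 0.857% of all genes and the filter 2.03%. With the 2 libraries set aside 23 of 15074 genes were called. Of 15 principal cell markers 6 were higher and 9 lower (median -0.16), with 0 called by edgeR, DESeq2 or limma-voom. By edgeR 4 of them had an unadjusted p under 0.05 (13.8% of all genes tested). Without day 1 rat 2 the directions of all 3 lists turned: 17 of 27 water transport genes were higher (median 0.30), 14 of 24 of sodium and potassium transport (median 0.07) and 10 of 15 principal cell markers (median 0.07).

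Vamp2, the vesicle SNARE that takes part in fusion of Aqp2 vesicles with the membrane, had the smallest p of the water transport list. It stood at 134.2, 183.1 and 132.7 CPM at day 1 and at 58.33, 47.57, 53.73 and 62.5 CPM at day 2, with no overlap (log2 difference -1.43, SE 0.31, adjusted p = 0.0715). In control rats its log2 difference was -1.53 (adjusted p = 0.0256). Prkaca, a catalytic subunit of protein kinase A, stood at 34.1, 86.06 and 22.1 CPM and then at 23.43, 18.96, 9.823 and 11.42 CPM (adjusted p = 0.252). Stk39 and Wnk4, kinases that act on sodium transporters, had log2 differences of -1.95 (adjusted p = 0.218) and -1.07 (adjusted p = 0.263). Their day 2 libraries all lay below day 1, as in 5.9% of all genes tested.

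**Figure D5:**
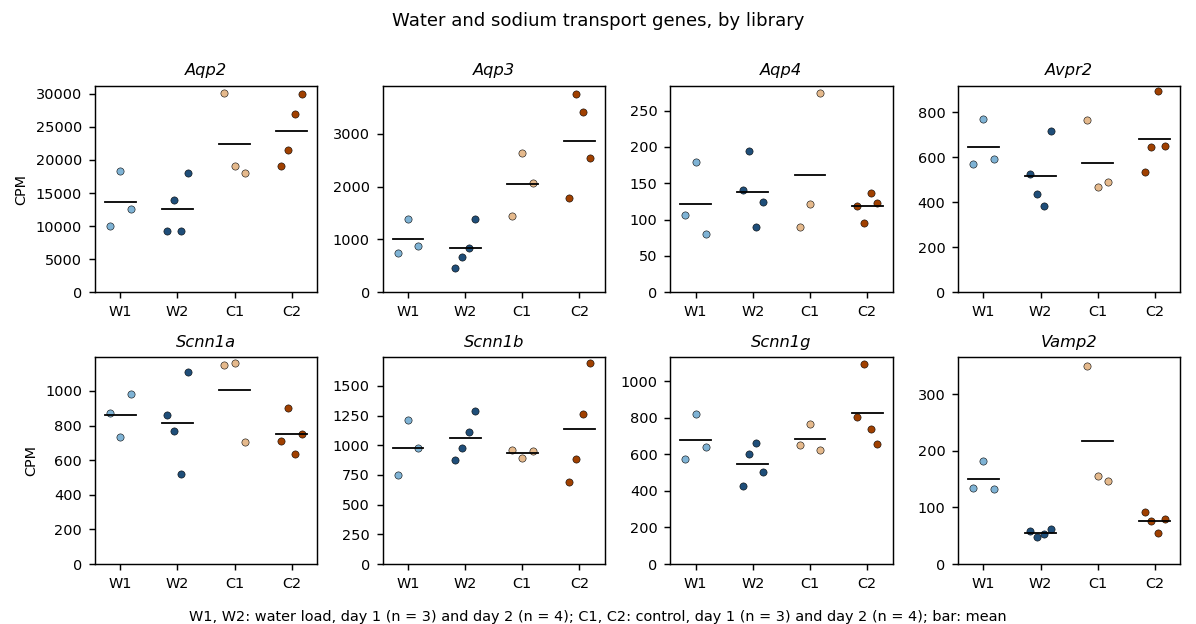
Level in CPM of 8 genes of water and sodium transport in each water-loaded (W) and control (C) library of days 1 and 2; points are rats, bars are group means and each axis starts at 0. Water-loaded values of Aqp2 range over 9242 to 18330 CPM on both days together, whereas the 4 day 2 values of Vamp2 (47.57 to 62.5 CPM) lie below the day 1 values.

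Genes of other tasks of the duct gave single members with small p. Atp6v0b, a subunit of the vacuolar proton pump of intercalated cells, stood at 1798, 2726 and 1728 CPM at day 1 and at 1190, 1207, 742.7 and 975.9 CPM at day 2 (adjusted p = 0.12), while its list had 10 of 20 members higher and a median of 0.12. Car2, the cytosolic carbonic anhydrase, stood at 1016, 1526 and 1076 CPM and then at 1782, 1765, 3623 and 2702 CPM (adjusted p = 0.246). Dmrt2, a transcription factor of type A intercalated cells, stood at 219.2, 361.1 and 231.4 CPM and then at 151.6, 104.7, 180.6 and 106.9 CPM (adjusted p = 0.149). Hmx2, a homeobox factor, stood at 1349, 1219 and 1224 CPM and then at 772.9, 1138, 794.5 and 874.3 CPM (log2 difference -0.50, SE 0.20, adjusted p = 0.294). All 4 had no overlap between days, and none passed. Of all genes tested, 8.14% had every day 2 water-loaded library above every day 1 library, and 5.9% had every one below.

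Metabolic and stress genes also had members with small p and without overlap that did not pass. Of all genes tested, 8.14% lay wholly above and 5.9% wholly below day 1. Slc38a2, an amino acid transporter induced by hypertonicity, stood at 239, 333.7 and 296.7 CPM at day 1 and at 82.24, 142.8, 162.9 and 82.71 CPM at day 2 (log2 difference -1.30, SE 0.31, adjusted p = 0.1). In control rats its log2 difference was -0.03, and the interaction had an unadjusted p of 0.00955. Gapdh, a glycolytic enzyme with many retrocopies, stood at 504, 817.5 and 569 CPM and then at 1270, 1075, 1243 and 1721 CPM (log2 difference 1.08, adjusted p = 0.198), with an interaction p of 0.0216, unadjusted. Tfeb, a regulator of lysosome genes, stood at 237.8, 256 and 225.2 CPM and then at 134.9, 95.39, 80.52 and 81.4 CPM (log2 difference -1.29, adjusted p = 0.0912), and it was called in control rats (log2 difference -1.61, adjusted p = 0.0179).

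The chaperones of the endoplasmic reticulum had values in both directions. Hyou1 stood at 14.16, 1.429 and 3.116 CPM at day 1 and at 43.1, 51.82, 54.65 and 57.01 CPM at day 2 (adjusted p = 0.125), and Pdia4 at 0, 0.02647 and 7.192 CPM and then at 42.05, 76.92, 72.43 and 66.27 CPM (adjusted p = 0.2). Calr, calreticulin, went the other way, from 377.5, 769.3 and 690.3 CPM to 253.8, 359.7, 120.7 and 241.3 CPM (adjusted p = 0.2). Of the 21 tested genes of this list 8 were higher and 13 lower, with a median of -0.28, and without day 1 rat 2, 11 were higher and 10 lower, with a median of 0.04. By edgeR 0 were called and 7 had an unadjusted p under 0.05 (3 higher, 4 lower), which 13.8% of all genes tested reached. Without day 1 rat 1, 1 was called higher, where 29 of 15144 genes tested were called in either direction. Without day 1 rat 3, 1 was called higher too, where 35 of 15142 were called. DESeq2 (6.18% of its genes in either direction) and the 2 FPKM scales (0.712% and 0.857%) called 2 higher each and limma-voom (0.891%) 1. Tuba1b, an alpha tubulin, stood at 161.8, 399 and 189.7 CPM at day 1 and at 563.3, 512.7, 546.5 and 1042 CPM at day 2 (log2 difference 1.41, adjusted p = 0.133), with 8 of 11 tubulins higher.

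The call of single genes depended on which rats entered. The count was 3 without day 1 water-loaded rat 2, and 5, 11, 6 and 4 without day 2 water-loaded rat 1, 2, 3 and 4. It was 1, Spint2, in the fit with detected genes per library as a covariate, and 0 with day 2 rats 1 and 2 only. With day 2 rats 3 and 4 only it was 19, 5 of them among the 27. Summed mitochondrially encoded genes were 122900, 104100, 30650 and 25090 CPM in day 2 water-loaded rats 1 to 4. Day 2 control rats 1 to 4 stood at 64460, 82780, 13540 and 26680 CPM, and the day 1 water-loaded rats at 61070, 88930 and 63010 CPM. The part of this split within day 2 in the calls was not tested. Spint2 was called in 20 of 21 alternatives, and its log2 difference ranged from -3.14 to -2.46.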

How the data were processed

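RNA from hand-dissected cortical collecting ducts was reverse transcribed in the lysate and amplified by a single-cell method, per the labels' protocols. The authors deposited raw counts of reads per gene for 32545 genes and FPKM of the same genes. Trimmomatic 0.32, STAR 2.4.0.1, SAMtools, HTSeq and the build rn6 come from the submitters' processing notes; annotation and strand use, not given in the sources used here, bear on overlapping genes. Of the deposited rows, 5 summary lines, with 31.45% to 35.61% of counts, were dropped. The deposited FPKM values served in alternatives and for an implied length only. In the 7 water-loaded libraries 3 counts were worth 0.0414 to 0.0794 CPM; such floors cover counting error only, since amplified reads are not independent molecules.

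The main test was edgeR 4.0.16 (R 4.3.3) on counts of all 20 libraries (filterByExpr, TMM, robust quasi-likelihood, 1 mean per group), which left 14472 genes; adjusted p is Benjamini-Hochberg over these, with a threshold of 0.05. Folds come from the fitted log2 difference; group values are mean ± SD over rats. The p-values measure the spread between rats. DESeq2 1.42.0 and limma 3.58.1 were alternatives. The test was tried on simulated data. Lists (48, of 845 entries, 26 not found) got counts and medians only. The members and lists were chosen with earlier results of these data known. Named were 7 transport genes, up to 12 called genes per direction (filled to 10, at least 10 CPM, no locus name, no overlap) and up to 3 members per list with the smallest p; the other called genes, Cdc20, Cdca8 and Smc2 were added after their values were seen. Some genes that this rule names are not reported here.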

Additional observations from a re-analysis of the deposited data

Results flagged for a closer look

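In 139 checks of single genes and list means among the 4 day 2 water-loaded rats, 11 had 1 rat set far from the other 3 (Dixon's test, 95% critical value), and chance gives about 1 in 20. Rat 2 was the lowest for Aurkb (16.05 CPM) and Wnk4 (41.58 CPM) and the highest for Slc2a1 (171.4 CPM), Lrp2 (0.2255 CPM), the proximal tubule markers (mean log2 CPM -0.09) and the red blood cell markers (mean log2 CPM 2.50). Rat 4 was the highest for Tyms (165.6 CPM), Tuba1b (1042 CPM) and the oxidative phosphorylation list (mean log2 CPM 9.63), and the lowest for the tonicity and osmolyte list (mean log2 CPM 4.74). Rat 3 was the highest for Dusp6 (79.51 CPM). No named gene moved in opposite directions without overlap in water-loaded and control rats.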

How the results depend on the processing

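With water load 27 genes were called, 25.9% of them higher. The count was 71 with a filter of 50 CPM, 830 by DESeq2 (60.6% higher), 129 by limma-voom (62%), 103 on log2(FPKM + 1) (53.4%), 124 on log2(FPKM + 0.1) (61.3%), 6 with only the groups compared, 3 with the proximal tubule level and 1 with detected genes per library as a covariate, and 0 with day 2 libraries 1 and 2 only. DESeq2 size factors gave 20 (15% higher), no filter 22 (13.6%) and the 2 day 1 libraries set aside 23 (56.5%, 10 of them among the 27). With day 2 libraries 3 and 4 only it was 19, and without 1 water-loaded library 3 to 35. The median over all genes was 0.09, 0.31 by limma-voom, 0.37 on log2(FPKM + 0.1) and -0.05 with detected genes as a covariate. Of the 27 genes none changed sign, and each lost its call in 1 to 17 of up to 21 alternatives.

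In control rats (194, 40.7% higher) the count was 1748 by DESeq2, 495 by limma-voom, 327 on log2(FPKM + 0.1) (60.9%), 4 with only the groups compared, 525 and 13 with the covariates, 51 with the libraries set aside and 1 with day 2 libraries 1 and 2, and 13 to 406 without 1 library. With day 2 libraries 3 and 4 only it was 145. On log2(FPKM + 1) 52.2% were higher. The interaction (0) had 518 by DESeq2, 5 by limma-voom, 1 on log2(FPKM + 0.1) and 0 to 8 without 1 library.

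Replicate numbers gave no sign of pairing. Deviations from the group means correlated at -0.039, 0.025 and -0.013 between same-numbered day 1 and day 2 water-loaded libraries. Control rats were not checked in this way. With so few libraries per group these values cannot settle whether same-numbered libraries shared a batch. With the replicate block 8 genes were called with water load, 79 in control rats and 0 in the interaction.

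Signs turned for genes that were not called. Aqp2 was 0.094 with the 50 CPM filter, 0.041 on both FPKM scales, 0.096 with the proximal tubule level, 0.15 with the 2 libraries set aside and 0.006 with day 2 libraries 3 and 4; without 1 library it ranged from -0.34 to 0.17, and from -0.32 to 0.12 on the scale of the permutation test (exact p from 0.5 to 1). Aqp3 was 0.023 with the 2 libraries set aside and 0.14 with day 2 libraries 3 and 4 (-0.62 to 0.048 without 1 library). Aqp4 was -0.18 with day 2 libraries 3 and 4. Scnn1a was 0.056 with the 50 CPM filter, 0.043 on both FPKM scales and 0.051 with detected genes. Scnn1b was -0.05 with the replicate block, -0.27 with detected genes and -0.092 with day 2 libraries 1 and 2. Rab11a was 0.078 with detected genes. Without 1 library Aqp4 ranged from -0.056 to 0.56, Scnn1a from -0.27 to 0.086 and Scnn1b from -0.04 to 0.30.

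The mitosis list had 28 to 32 of 32 members higher in 20 alternatives (medians 1.64 to 3.63), and the 50 CPM filter left none of it. Medians of the immediate-early list were -1.94 to -0.92, of ribosomal proteins -0.83 to -0.21 of the proteasome 0.36 to 0.72 and of the G1/S list 0.42 to 1.62. Medians took both signs for principal cell markers (-0.29 to 0.09), water transport (-0.21 to 0.30), sodium and potassium transport (-0.27 to 0.07), endoplasmic reticulum stress (-0.52 to 0.12) and endothelial markers (-0.01 to 2.79). At day 1, 3 counts were worth 0.0552 to 0.0794 CPM, so the size of a difference is poorly fixed for genes near that level, such as Timm44.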

Other observations

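Several lists not described above also differed in their counts from the genes tested as a whole, where 53.2% were higher. Of 15 tested interferon response genes 13 were higher under water load (median log2 difference 1.34, and 0.55 without day 1 rat 2; 9 of 15 and 0.81 in control rats). By edgeR 0 were called and 2 had an unadjusted p under 0.05 (13.8% of all genes tested). DESeq2 called 1, lower (6.18% of its genes in either direction). Of 13 genes of MAPK feedback 9 were higher (median 1.80; 9 of 13 and 1.04 in control rats); Dusp6, an ERK phosphatase, stood at 0.7537, 5.188 and 8.303 CPM at day 1 and at 26.62, 28.26, 79.51 and 33.21 CPM at day 2 (adjusted p = 0.202). Of 19 duct transcription factors 14 were lower (median -0.50; control rats -0.06). Tfcp2l1, a factor of distal nephron epithelium, stood at 355.3, 443.4 and 238.1 CPM and then at 119.4, 291.6, 222.9 and 144 CPM (adjusted p = 0.318), and its control step went the other way (log2 difference 0.51, an unadjusted interaction p of 0.0167). Of 12 hypoxia targets 9 were lower (median -0.62); Slc2a1, the glucose transporter GLUT1, stood at 187.3, 349.1 and 128.2 CPM and then at 77.9, 171.4, 81.87 and 93.28 CPM (log2 difference -1.06), against a control log2 difference of 0.83 and an unadjusted interaction p of 0.00191.

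Insig1, a feedback regulator of sterol synthesis, stood at 52.67, 151.3 and 214.3 CPM at day 1 and at 31.28, 31.78, 16.32 and 27.96 CPM at day 2 (log2 difference -2.38, adjusted p = 0.12), with -2.35 in control rats; its list had 11 of 23 members higher and a median of -0.04. Anxa2, an annexin that binds membranes, stood at 49.98, 20.22 and 34.41 CPM and then at 124, 112.1, 78.21 and 91.2 CPM (log2 difference 1.54, adjusted p = 0.149; control -0.76), with an unadjusted interaction p of 0.00105. Utp18, a factor of ribosome assembly, stood at 4.228, 7.068 and 3.705 CPM and then at 30.82, 26.78, 28.47 and 41.55 CPM (adjusted p = 0.192), and Npm1, nucleophosmin, at 301.2, 431.2 and 438.5 CPM and then at 883.8, 585.4, 877.5 and 1447 CPM (adjusted p = 0.143). By edgeR with all libraries no adjusted p of the interaction was below 0.24, whereas DESeq2 called 518 genes and limma-voom 5.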
